A study of Mus musculus with 9 samples.

Results

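The 3 control libraries of a set of 9 RNA-seq libraries were described to obtain the baseline program of Mϕs grown in CSF-1 alone. They were chosen by their labels as the control columns #1, #2 and #3 of the deposited table, and the 6 libraries treated with IL-4 or IL-6 were read only for transcripts foreign to the culture, given in the closing section. BM cells from 3 WT C57BL/6 mice were grown in RPMI-1640 with 5% FBS and 10 ng/ml CSF-1 for 3 days and then kept in 10 ng/ml CSF-1, with no other cytokine, for 4 more days. The CSF-1 is common to all 9 libraries. The cells were neither sorted nor selected by a surface marker in the sources used here, so each value is an average over every cell left in the dish. Poly(A) RNA was made into stranded libraries, and levels are given as fragments per kilobase of exon per 1000000 fragments (FPKM), a level per length that allows genes to be compared with each other. Since there is 1 group, no test was made. Each statement rests on the values in the 3 libraries, and genes are placed in order only where their lowest and highest libraries do not overlap.

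Mϕs derived from BM arise from progenitors that survive, divide and mature in response to CSF-1, the ligand of the receptor tyrosine kinase encoded by Csf1r. The transcription factor PU.1 (Spi1) acts with C/EBP and MAF family factors to turn on genes of phagocytosis, lysosomes and innate sensing. Such cells are known as a resting but competent state, which other cytokines or microbial products move in different directions.

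The libraries were scaled to 29988160 to 35087119 fragments, as recovered from the steps of the FPKM values. Of 53379 genes in the table, 21852 were nuclear protein-coding genes, and 9794 of these had a mean of at least 1 FPKM, which is the level named expressed from here on. This share of 44.8% is the background for the gene lists that follow, and the share of at least 100 FPKM was 1.94%. The lists were chosen with earlier results of these data known, so a share above the background is a description only. Between pairs of control libraries, Pearson's r of log2 FPKM over the expressed protein-coding genes ran from 0.965 (control #1 and #2) to 0.993 (control #2 and #3), a description across genes. Control #1 and control #2 deviated with gene length in opposite directions, with control #3 between them. Control #1 was also the lowest library for most genes of several lists, with the counts given beside those lists.

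The label of the libraries was checked against 4 markers, and each was high in every library. Csf1r, the receptor for CSF-1, was at 751, 574 and 569.6 FPKM in control #1, #2 and #3, and Adgre1, which encodes the F4/80 antigen, was at 523, 393 and 425 FPKM. Control #1 was the highest library for both. Cd68, a glycoprotein of late endosomes and lysosomes, was at 1311, 1642 and 1588 FPKM. Lyz2, the lysozyme of myeloid cells, was at 13786, 16064 and 13879.9 FPKM and ranked second of all nuclear protein-coding genes in each library. Of these, 3 genes lie at chr17:57358691-57483527 (Adgre1, plus strand), chr11:69664213-69666153 (Cd68, minus strand) and chr10:117277331-117282321 (Lyz2, minus strand) in GRCm38. Part of the Lyz2 value is uncertain, because Lyz1 is a close copy whose reads can be assigned to either gene. Lyz1 was listed at 26.8, 32.8 and 27.9 FPKM.

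All 17 genes of a list shared by most Mϕs and all 20 of a list of core Mϕ genes were expressed, against 44.8% of protein-coding genes. Because earlier results were known when the lists were chosen, this contrast is not a test of identity. Their medians were 125 and 32.2 FPKM, and 10 of the first list were at 100 FPKM or more. The lowest means of the 17 were those of Msr1, scavenger receptor A, at 24.9, 22.8 and 29.9 FPKM and Ptprc, the leukocyte antigen CD45, at 35, 19.6 and 25.8 FPKM, and their ranges overlapped. Mpeg1, the pore-forming perforin-2 of phagocytes, was at 1425, 1083 and 1224 FPKM, and Mertk, a receptor for dying cells, at 75.3, 46.3 and 54.1 FPKM. The plot of levels by rank places Cd68, Csf1r and Adgre1 within the 100 highest genes.

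**Figure D1:**
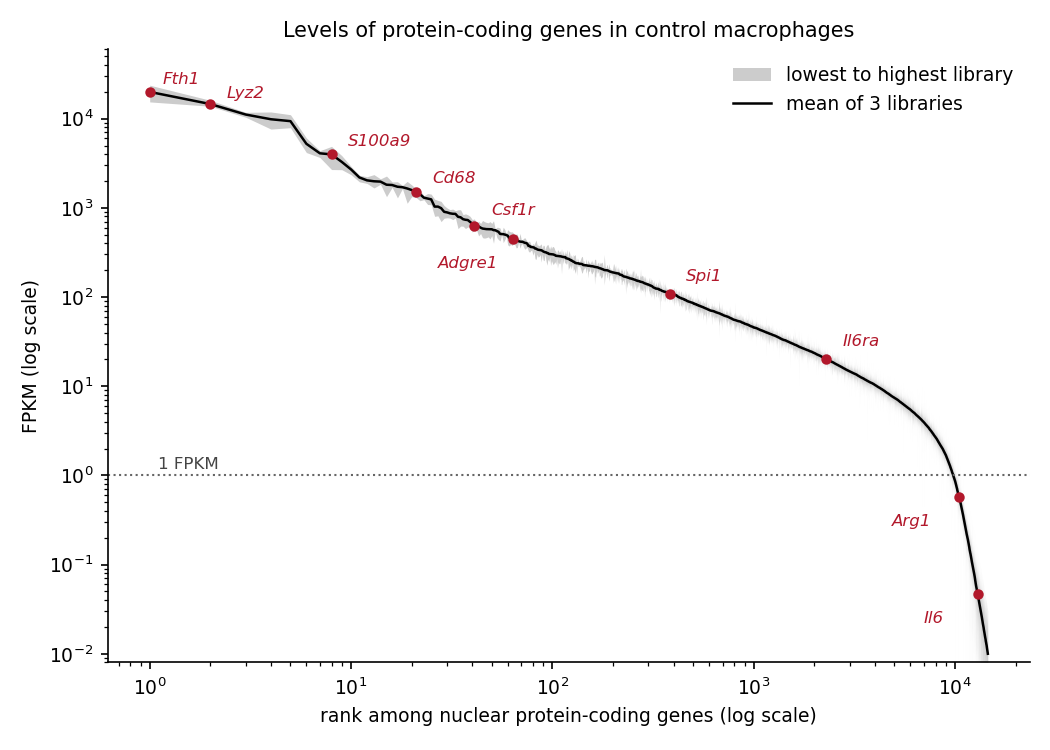
Mean FPKM of nuclear protein-coding genes in the 3 control libraries against their rank (both axes on a log scale), with the lowest to highest library in gray and a dotted line at 1 FPKM. Fth1 has the highest mean at 19950 FPKM, Il6 lies at 0.0471 FPKM with further genes below it, and the 4 markers of the label lie among the 100 highest genes.

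The promoters of 2 of these markers, Lyz2 and Cd68, are shown from RefSeq (GRCm38.p6) for the ETS and C/EBP motifs counted in lists below. The windows are the 250 bases before the RefSeq start, read 5′ to 3′ on the gene's strand. Capitals in Lyz2 (chr10:117282273-117282522 (minus strand)) mark GGAA, the core bound by ETS factors such as PU.1, on either strand, and those in Cd68 (chr11:69666171-69666420 (minus strand)) mark TTGCNNAA, a C/EBP motif. GGAA is so common that 95.7% of all 16504 promoter windows hold it, whereas TTGCNNAA was found in 10.03%. Shares of windows, here and below, were counted with the 50 bases after the start included, which the printed sequences leave out.
Lyz2: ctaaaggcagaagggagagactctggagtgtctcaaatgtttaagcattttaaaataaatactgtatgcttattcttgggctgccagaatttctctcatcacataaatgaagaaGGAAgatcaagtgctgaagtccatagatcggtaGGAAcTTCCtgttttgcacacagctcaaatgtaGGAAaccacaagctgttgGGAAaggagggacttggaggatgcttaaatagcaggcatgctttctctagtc
Cd68: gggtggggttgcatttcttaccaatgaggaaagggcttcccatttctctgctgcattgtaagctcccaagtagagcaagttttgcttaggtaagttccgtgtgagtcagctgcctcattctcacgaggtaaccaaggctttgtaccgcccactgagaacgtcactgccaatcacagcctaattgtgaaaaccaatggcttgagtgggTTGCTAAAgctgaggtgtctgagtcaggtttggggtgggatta
Lyz2 held 5 matches to GGAA, including a pair facing each other, and Cd68 held 1 match to the C/EBP motif, 43 bases before its start. The Lyz2 window had 1 CpG dinucleotide and the Cd68 window 4.

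The transcripts were concentrated in few genes. The 10 highest nuclear protein-coding genes held 23.4 to 27.3% of the summed FPKM in the 3 libraries, the 100 highest 42 to 47.2% and the 1000 highest 69.7 to 74.8%. Of the 100 highest genes of each library, 89 were shared by all 3 libraries. Counted as fragments without division by length, the share of the 100 highest genes was 33.8% in place of 44.8%, both as means over the 3 libraries.

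Genes of iron storage and of the lysosome held the first ranks. Fth1, the ferritin heavy chain, was at 15408, 23727 and 20715 FPKM and ranked first in each library, with a range that overlapped that of Lyz2. Ftl1, the ferritin light chain, was at 7639, 11884 and 10021 FPKM. Both were lowest in control #1 and highest in control #2. Processed copies of both genes exist, so their values are less certain than those of unique genes. Psap, the precursor of the saposins that help lysosomal enzymes reach lipids, was at 10364, 11771 and 11219 FPKM, a range that overlapped that of Ftl1. The lowest Lyz2 value lay above the highest Psap value. Apoe, the lipid carrier apolipoprotein E, was at 7918, 11075 and 9140.1 FPKM and lay above the next gene, the lysosomal protease Ctsd, in every library.

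By count alone, genes of the lysosome and secreted products were the most frequent among the listed genes of high rank. Of the 30 highest genes, 9 belonged to the lysosome lists (66 genes), 7 to the secreted products (120 genes) and 5 to the Mϕ identity lists (37 genes). These lists share members and differ in size, so the counts do not rank them by share. Ctsb (4088 ± 368 FPKM, mean ± SD, n = 3), Ctss (2191 ± 202), Lamp1 (1300.4 ± 64.4), Ctsz (1032 ± 202) and Hexa (889 ± 111) were other lysosomal genes with a role in digestion or in the membrane. The chain of the NADPH oxidase Cyba (1033 ± 224) and the signaling adaptors Tyrobp (1584 ± 238) and Fcer1g (902 ± 148) also ranked among the 30. Genes of antigen presentation were B2m (2695 ± 298) and H2-D1 (1272 ± 178). Secreted products were the complement gene C1qb (1986 ± 347), the selenium carrier Selenop (2033 ± 183) and the galectins Lgals3 (1725 ± 374) and Lgals1 (993 ± 257). Genes of the cytoskeleton were the actin-binding peptide Tmsb4x (3270.3 ± 583) and Actb (1422 ± 195), and those of translation were the elongation factor Eef1a1 (1968 ± 138) and the ribosomal protein Rplp1 (1817 ± 469). The glycoprotein Gpnmb (1803 ± 132), counted in the lysosome lists as a membrane protein, and the membrane protein Itm2b (1703 ± 72.4) completed these. S100a9 and S100a8, the calprotectin chains that are most abundant in neutrophils, also ranked among the 30. The order is coarse. Among the 29 pairs of neighbors, the libraries of 26 overlapped, and 3 pairs lay apart: Lyz2 and Psap, Apoe and Ctsd, and B2m and Ctss.

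Lysosomal genes were expressed without exception: all 66 genes of 4 lists were at 1 FPKM or more, and 36 were at 100 FPKM or more against 1.94% of protein-coding genes. The 13 cathepsins and related proteases had a median of 151 FPKM and ran in mean from Ctse at 3.22 to Ctsd, the aspartyl protease cathepsin D, at 4168, 6078 and 5429 FPKM in control #1, #2 and #3. Ctsk, the collagen-degrading cathepsin of osteoclasts, was low at 5.19, 7.43 and 9.01 FPKM. Lgmn, the asparaginyl endopeptidase legumain, was at 771, 929 and 868 FPKM.

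All 16 proton pump genes, whose products acidify the lysosome, were at means from 15 to 216 FPKM. Atp6v0d2, a subunit enriched in Mϕs and osteoclasts, was at 147, 169 and 195 FPKM and Atp6v0d1, its widely expressed counterpart, at 135, 188 and 166 FPKM, and their ranges overlapped. The 26 hydrolases and activators had a median of 65.8 FPKM. Lipa, the acid lipase that releases cholesterol from lipoprotein, was at 663, 565 and 644 FPKM, and Smpd1, acid sphingomyelinase, was at 10.2, 10.9 and 12.5 FPKM, a range that overlapped that of Ids, iduronate sulfatase, at 16.7, 7.77 and 9.7 FPKM. Mcoln1, a calcium channel of the lysosome, was at 14.6, 14.5 and 13.9 FPKM in the 3 libraries, a ratio of the highest to the lowest of 1.05.

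The MiT/TFE factors that bind CACGTG (an E-box) in lysosomal promoters were expressed at moderate levels. Tfe3 was at 18.2, 16 and 15.4 FPKM, Tfeb at 12.7, 15.5 and 14.1 FPKM and Mitf at 13.2, 8.35 and 10.8 FPKM. Of 52 lysosomal genes with a promoter window, 13 (25%) held CACGTG, which reads the same on both strands, against 8.11% of all windows and 12.3% of those of genes at 10 to 100 FPKM. The promoters of Ctsd (chr7:142387828-142388077 (minus strand)) and Lamp1 (chr8:13158911-13159160 (plus strand)) are shown because these were the highest lysosomal genes with that motif. Capitals mark CACGTG.
Ctsd: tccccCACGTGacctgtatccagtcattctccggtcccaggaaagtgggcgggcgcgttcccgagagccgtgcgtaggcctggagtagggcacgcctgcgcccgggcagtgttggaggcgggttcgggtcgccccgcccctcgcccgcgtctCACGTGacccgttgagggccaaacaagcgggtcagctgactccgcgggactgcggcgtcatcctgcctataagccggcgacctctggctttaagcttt
Lamp1: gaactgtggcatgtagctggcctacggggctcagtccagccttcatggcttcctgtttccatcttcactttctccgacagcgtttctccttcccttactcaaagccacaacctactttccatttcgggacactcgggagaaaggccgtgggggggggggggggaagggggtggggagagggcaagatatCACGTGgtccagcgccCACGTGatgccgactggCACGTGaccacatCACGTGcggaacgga
Ctsd held 2 matches and Lamp1 held 4, the latter all within 61 bases of the start. A match is a description of the letters and was not tested as a binding site.

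**Figure D2:**
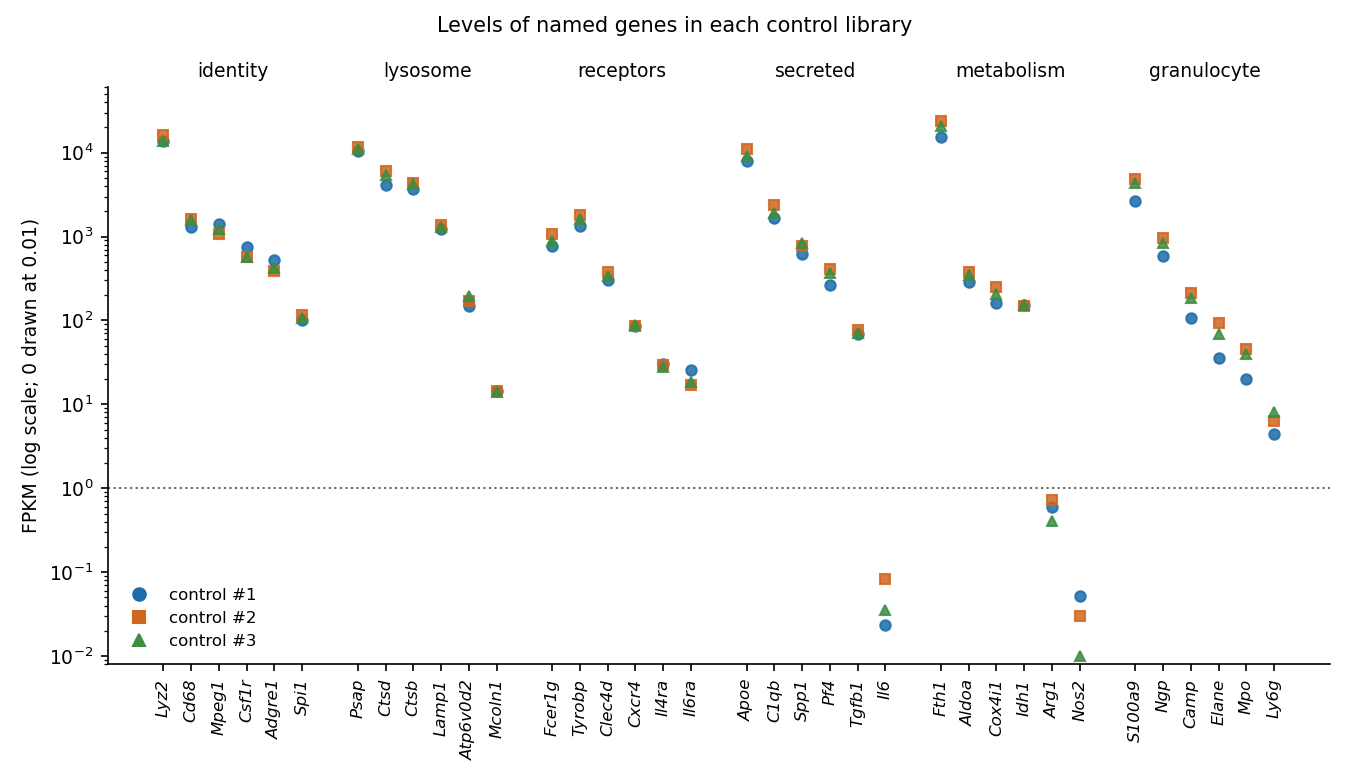
FPKM (log scale) of 36 named genes in control #1 (circles), control #2 (squares) and control #3 (triangles), grouped by role, with a dotted line at 1 FPKM and a value of 0 drawn at 0.01. Ctsd and the other lysosomal genes lie above 1 FPKM in every library, Il6, Arg1 and Nos2 lie below 1 FPKM, and the granulocyte genes are lowest in control #1.

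Lineage transcription factors followed the myeloid pattern, with 15 of 16 myeloid factors expressed. Spi1 was at 100.4, 118 and 108 FPKM and Cebpa at 109.8, 128 and 122 FPKM, and these were the highest of them. Irf8 and Irf5, interferon regulatory factors of myeloid cells, were at 43.8, 43.1 and 42.8 and 71.8, 74.1 and 74.3 FPKM. Maf was at 68, 43.2 and 48.7 FPKM. Klf4, a factor of monocytes, was the exception at 1.2, 0.656 and 0.832 FPKM.

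Factors of other lineages were low, with a median of 0.233 FPKM. Of 12, only Gfi1 (1.45, 2.34 and 2.43 FPKM) and Gata1 (0.776, 1.67 and 1.13 FPKM), which act in granulocyte and erythroid or megakaryocyte precursors, reached a mean of 1 FPKM. Gata3 and Tbx21 of T cells and Zbtb46 of dendritic cells had means of 0.0571, 0.0267 and 0.0793 FPKM.

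Of 4 factors that mark resident Mϕs of tissues, 1 was expressed. Sall1, of microglia, had 0 fragments in all 3 libraries, which allows up to 0.019 FPKM at 3 fragments per library (counting error only). Gata6, of large peritoneal Mϕs, was at 0.00897, 0.0104 and 0.0357 FPKM. Spic, of red pulp Mϕs that recycle iron, was at 12.9, 16.3 and 13.4 FPKM, and the list of 5 red pulp genes was expressed in full: Hmox1, heme oxygenase, at 385, 569 and 507 FPKM and Slc40a1, the iron exporter ferroportin, at 159, 117 and 126 FPKM. Of 6 Kupffer cell genes, 4 were expressed. Among them, Marco, a scavenger receptor, was at 34.5, 43.2 and 25.3 FPKM and Cd5l, a secreted scavenger protein, at 139, 269 and 246 FPKM, lowest in control #1, while Clec4f had 0 fragments and Timd4 was at 0.33, 0.844 and 0.512 FPKM. Of 7 microglia genes, 4 were expressed, among them Gpr34 at 8.53, 5.33 and 5.51 FPKM and Tmem119 at 1.2, 1.9 and 1.29 FPKM. Of 5 alveolar Mϕ genes, 3 were expressed, with Fabp4, a fatty acid carrier, at 36.7, 64.2 and 59.8 FPKM, and of 5 large peritoneal Mϕ genes 1 was expressed, Icam2 at 2.74, 3.63 and 3.98 FPKM. The Kupffer cell, microglia, alveolar and large peritoneal shares were 66.7, 57.1, 60 and 20%, against 44.8% of protein-coding genes. With only 5 to 7 genes in each of these lists, nothing is read from the shares about a tissue program.

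Nuclear receptors and signal-dependent factors were present at rest. Rxra was at 41.1, 34.1 and 35 FPKM, Nr1h3, the oxysterol receptor LXRα, at 17.8, 28.6 and 25.5 FPKM and Pparg at 15.6, 18.2 and 20.02 FPKM. All 16 signal-dependent factors were expressed. Atf3 was the highest at 117, 141 and 150.3 FPKM, followed by Nfe2l2, the antioxidant regulator NRF2, at 98.9, 89.8 and 93.9 FPKM, and their ranges did not overlap. Stat6, which transmits IL-4 signals, was at 67.1, 56.5 and 60.7 FPKM, and Stat3, which transmits IL-6 signals, at 13.3, 10.5 and 11.6 FPKM.

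The chains of the IL-4 and IL-6 receptors were expressed with neither cytokine added. Il4ra was at 30.6, 29.7 and 27.6 FPKM, Il2rg, the common gamma chain, at 24.4, 25.8 and 24 FPKM and Il13ra1 at 11.1, 7.77 and 8.0 FPKM. Il6ra was at 25.5, 16.8 and 18.4 FPKM and Il6st, the shared signaling chain gp130, at 19.1, 9.49 and 13.8 FPKM. Il6st was highest in control #1 and lowest in control #2, at a ratio of 2.01, while Il4ra varied by a ratio of 1.11. Il6st has 11099 bases of exon and Il4ra 6002. In genes over 10 kb, the median ratio of control #1 to control #2 was 1.60, so these ratios are not read as particular to the receptors.

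Growth factor receptors other than Csf1r were lower. Csf3r, the G-CSF receptor, was at 117, 101 and 106 FPKM, Csf2ra, of the GM-CSF receptor, at 103, 92.4 and 106 FPKM, and Csf2rb at 79.9, 63.4 and 65.6 FPKM. Csf2rb and Csf2rb2 are close copies, so their reads may be split. Kit and Flt3, receptors of progenitors, had means of 0.838 and 0.535 FPKM. Of 16 other cytokine receptors, 14 were expressed, led by Tnfrsf1b, a receptor for TNF, at 220.1, 186 and 191 FPKM. Il10ra was at 89.3, 76.9 and 72.2 FPKM and Ifngr1 at 86.5, 85.1 and 78.5 FPKM, whereas Il1r1 was at 0.045, 0.0262 and 0.0314 FPKM.

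Chemokine receptors were led by Cxcr4 at 87, 85.9 and 88.6 FPKM, above Ccr1 at 31.2, 31.2 and 38.9 FPKM in every library. Ccr2, which guides monocytes from BM, was low at 4.5, 3.18 and 3.75 FPKM, and Cx3cr1 was at 3.48, 2.7 and 2.2 FPKM. Ackr3, a decoy receptor, had at most 1 fragment in a library.

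Sensors of microbes were broadly expressed, with 23 of 26 pattern recognition receptors at 1 FPKM or more, against 44.8% of protein-coding genes. Among Toll-like receptors, Tlr13, which senses bacterial ribosomal RNA, was at 90.5, 69.7 and 85.7 FPKM, Tlr7 at 79.8, 52 and 63.3 FPKM and Tlr2 at 55, 51.6 and 44.6 FPKM. Tlr4, the endotoxin receptor, was at 19.5, 10.1 and 14.1 FPKM, whereas its partner Cd14 was at 125, 141 and 109 FPKM. Tlr3 had a mean of 1.59 FPKM, and Tlr5, the flagellin receptor, one of 0.74 FPKM.

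Each of the 10 Toll-like receptor genes listed was highest in control #1, a count whose share over all expressed genes is not given here. Of the 11 expressed genes of the Toll-like receptor list, 7 were lowest in control #2, against 45.3% of all expressed protein-coding genes. The endosomal receptors Tlr8 and Tlr9 are given as examples. Tlr8 was at 62, 21.8 and 37.2 FPKM and Tlr9 at 20.7, 8.89 and 11.1 FPKM, ratios of 2.84 and 2.33. After removal of the trend on gene length described below, the 11 expressed genes of the Toll-like receptor list had a median deviation of 0.224 (log2) from the mean of the libraries in control #1 and -0.198 in control #2. With the trend removed, 9 of the 11 were lowest in control #2, against 38.3% of all expressed protein-coding genes.

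The highest C-type lectin lay above every gene of the Toll-like receptor list in each library. Clec4d was at 302, 383 and 343 FPKM, Clec7a, the glucan receptor dectin-1, at 224, 229.6 and 251 FPKM and Clec4n, dectin-2, at 181, 198 and 155 FPKM. Mrc1, the mannose receptor CD206, was at 80.8, 59 and 70.5 FPKM. Cd209b had 0 fragments in each library. Members of the Clec4a cluster are similar in sequence, and their separate values are less certain.

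Receptors for uptake covered antibodies, complement, lipids and dying cells, with 39 of 43 expressed and 14 at 100 FPKM or more. Fcer1g, the shared signaling chain, was at 765, 1059 and 882 FPKM, Fcgr3 at 389, 443 and 418 FPKM and Fcgr1, the high-affinity receptor for IgG, at 56.5, 72.1 and 70.4 FPKM. The inhibitory receptor Fcgr2b was at 102, 81.6 and 80.9 FPKM, and Fcer2a, the IgE receptor of B cells, was at 0.371, 0.431 and 0.415 FPKM.

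For lipids and modified lipoproteins, Cd36 was at 267, 278 and 389 FPKM, highest in control #3, and Stab1 at 342, 236 and 236 FPKM, highest in control #1. Cd163, a receptor for hemoglobin, was low at 4.37, 3.2 and 3.17 FPKM. The integrin chain Itgb2 was at 297, 271 and 301 FPKM and Itgam, CD11b, at 35.2, 33.7 and 36.8 FPKM. Gas6, a bridge between dying cells and Mertk, was at 286, 302 and 269.8 FPKM, and Trem2, a lipid sensor, at 181, 256 and 229 FPKM.

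Immune regulatory surface proteins were nearly all expressed, 45 of 46. Sirpa, the receptor that restrains phagocytosis on contact with CD47, was at 506, 507 and 512 FPKM and had the lowest coefficient of variation (CV, the SD over the mean) of all protein-coding genes at 100 FPKM or more, at 0.592%. Cd274, PD-L1, was at 26.9, 17.3 and 21 FPKM and Cd86 at 16.3, 16.2 and 13.9 FPKM. Cd40, the receptor for the T-cell ligand CD40L, was low at 2.4, 2.23 and 2.62 FPKM, and Pdcd1lg2, PD-L2, was at 0.366, 0.243 and 0.381 FPKM.

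Antigen presentation genes of both classes were all expressed, with a median of 53.7 FPKM for 10 genes of class I and 69.97 FPKM for 7 of class II. The MHC class I genes B2m and H2-D1 were at 2355, 2914 and 2816 and 1091, 1447 and 1279.6 FPKM, while Tap1 and Psmb9, whose products make and carry peptides, had means of 15.1 and 12.7 FPKM. Of class II, H2-Ab1 was at 59.7, 80.5 and 69.7 FPKM and the invariant chain Cd74 at 281, 382 and 354 FPKM, both below B2m and H2-D1 in each library and above Tap1 and Psmb9. Ciita, their master regulator, was at 2.33, 1.12 and 1.84 FPKM. H2 genes share sequence with each other, so single values are uncertain.

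**Figure D3:**
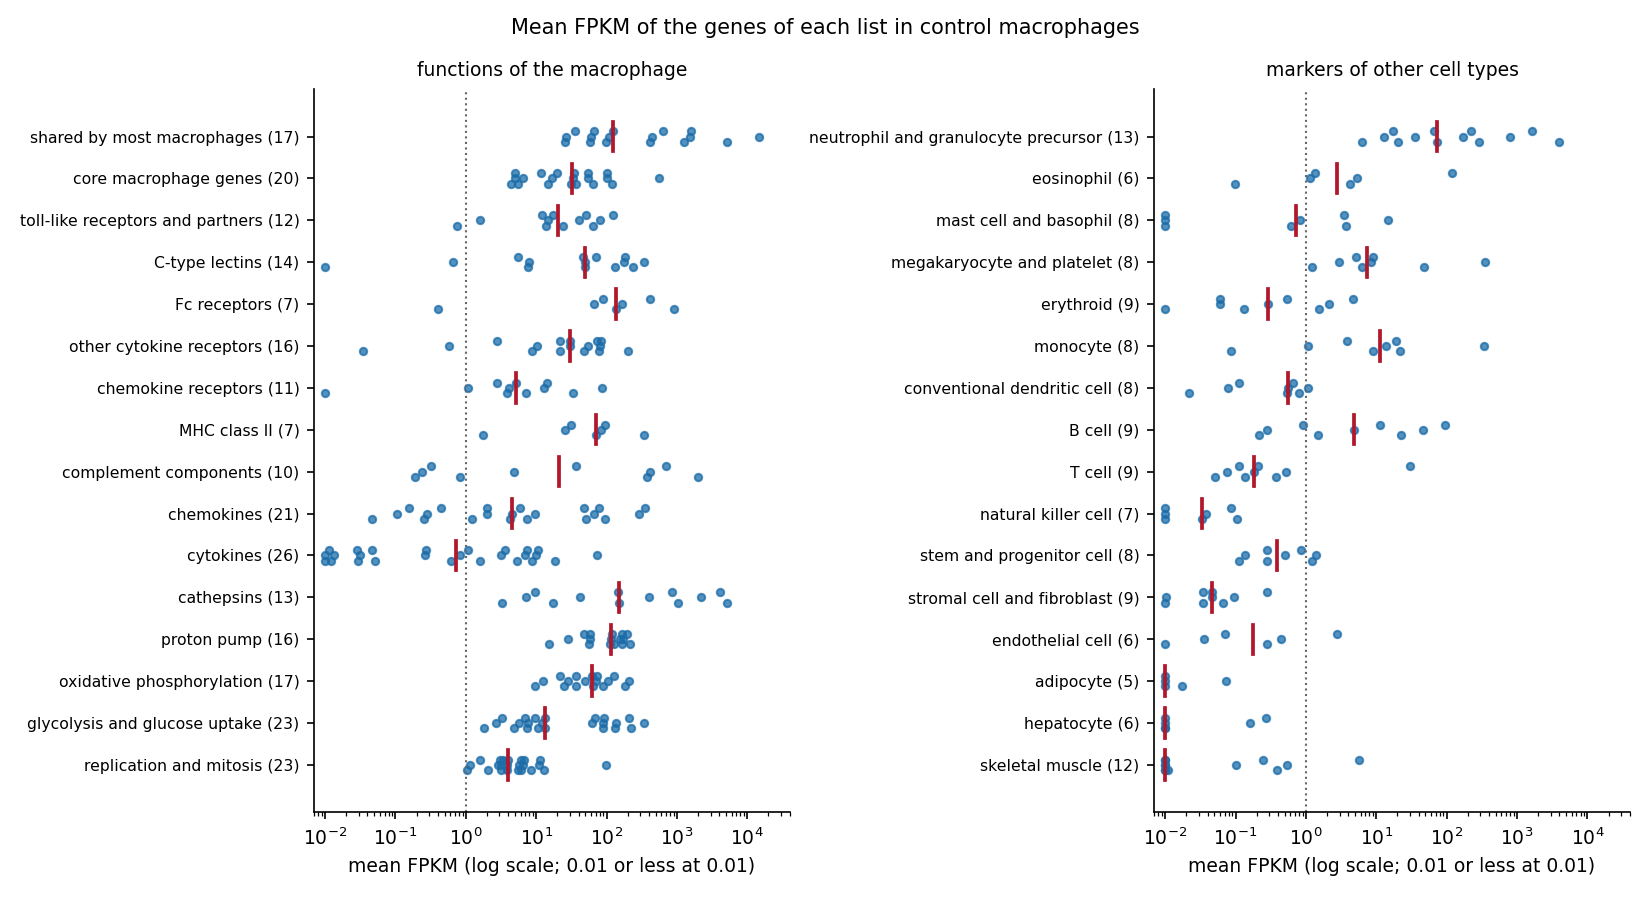
Mean FPKM over the 3 control libraries (log scale, values of 0.01 or less drawn at 0.01) for each gene of 16 function lists (left) and 16 lists of markers of other cell types (right), with the number of genes in brackets, the median as a bar and a dotted line at 1 FPKM. Cathepsin, proton pump and Fc receptor genes had medians above 100 FPKM, cytokines a median of 0.723 FPKM, and the granulocyte list had the highest median of the other cell type lists.

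Of 120 genes of secreted products, 86 were expressed and 29 were at 100 FPKM or more. Among complement genes, C1qb, C1qc and C1qa, the chains of the initiating molecule C1q, were at 1670.3, 2357 and 1929.6, 616, 803 and 671 and 354, 517 and 385 FPKM, and Cfp, properdin, at 327, 418 and 380.5 FPKM. In contrast, C2 and Cfb of the later convertases had means of 0.24 and 0.191 FPKM.

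Pf4, also a platelet gene, and Ccl6 led the chemokines. Pf4 was at 268, 410.0 and 371 FPKM and Ccl6 at 232, 313 and 325 FPKM. Ccl3 and Ccl4, which draw monocytes and T cells, were at 83.6, 106 and 99.3 and 55.1, 86.3 and 89.9 FPKM, and Ccl2, a ligand of Ccr2, at 6.7, 9.44 and 12.8 FPKM. Cxcl1, Cxcl3 and Cxcl9 had means of 0.107, 0.0463 and 0.257 FPKM. In total 15 of 21 chemokines were expressed.

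Of 26 cytokines, 12 were expressed, a share of 46.2% near the background of 44.8%, from which nothing is read about the list. Tgfb1 was at 68.2, 76.4 and 71.5 FPKM, above Il18 at 14.1, 21.1 and 19.4 FPKM in every library. Tnf was at 8.95, 8.52 and 8.52 FPKM, Il1a at 6.84, 7.03 and 7.13 FPKM and Il1b at 3.76, 3.74 and 2.14 FPKM. Il10 was at 0.94, 1.35 and 0.936 FPKM and Il6 at 0.0236, 0.0824 and 0.0352 FPKM. Ifng and Csf3 had 0 fragments in every library, which allows up to 0.0773 and 0.0708 FPKM. Csf1 itself was at 6.34, 4.7 and 4.94 FPKM.

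Among growth factors, Grn, progranulin, was at 768, 955 and 881 FPKM, Igf1 at 65.2, 50.03 and 56.1 FPKM and Vegfa at 27.6, 21.4 and 24.6 FPKM, while Areg had 0 fragments. Matrix genes were led by Spp1, osteopontin, at 623, 776 and 839.8 FPKM. Thbs1, thrombospondin-1, was at 206, 111 and 128 FPKM, the protease inhibitor Timp2 at 115, 132 and 125 FPKM and Mmp12, the Mϕ elastase, at 90.6, 106 and 152 FPKM, and their ranges overlapped. Timp1 was at 0.355, 0.826 and 0.417 FPKM.

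Metabolic genes were broadly expressed, with 139 of 144 genes expressed. All 17 oxidative phosphorylation genes were expressed with a median of 63.1 FPKM, and Cox4i1, of cytochrome oxidase, was at 163, 248 and 206 FPKM. Control #1 was the lowest library for 16 of the 17, against 41.9% of all expressed protein-coding genes, and for 14 once the trend on gene length described below was removed. All 23 glycolysis and glucose uptake genes were expressed with a median of 13.4 FPKM. Here the enzymes Aldoa, Pkm and Gapdh were at 285, 375 and 351, 185, 239.9 and 239 and 163, 238 and 227 FPKM, while the transporters Slc2a1 and Slc2a3 were at 6.5, 6.9 and 8.52 and 7.77, 7.48 and 7.78 FPKM. Hk3 (119, 131 and 139 FPKM) lay above the other hexokinases Hk1 (9.94, 9.22 and 9.66 FPKM) and Hk2 (11.9, 9.84 and 10.3 FPKM) in every library.

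All 18 genes of fatty acid oxidation and lipid storage were expressed, with a median of 19.7 FPKM. Fabp5, a fatty acid carrier, was at 586, 856 and 762 FPKM, Plin2, which coats lipid droplets, at 211, 319 and 337 FPKM and Lpl, a secreted lipase that frees fatty acids from lipoproteins, at 153, 174 and 237 FPKM. Dgat2, which makes triglyceride, was at 3.28, 3.96 and 4.15 FPKM. The synthesis genes Fasn, Acaca and Scd1 were at 4.55, 3.21 and 3.34, 1.72, 1.01 and 1.15 and 0.847, 0.938 and 1.23 FPKM. Abca1, which exports cholesterol, was at 86.3, 31.5 and 48.1 FPKM, a ratio of 2.74 between control #1 and #2. Abcg1 was at 41.6, 39.1 and 43.1 FPKM with a ratio of 1.10. Abca1 has 10363 bases of exon, and the median ratio of control #1 to control #2 was 1.60 in genes over 10 kb.

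All 7 NADPH oxidase genes were expressed, with a median of 105 FPKM, and so were all 17 antioxidant genes, led by Prdx1 at 536, 738 and 719 FPKM. Of the genes that mark activation, 5 of 10 associated with endotoxin and interferon-gamma were expressed, with Nos2 at 0.0519, 0.0302 and 0 FPKM. This share of 50% is near the background of 44.8%, and nothing is read from it about the list. Among 10 genes associated with IL-4, 6 were expressed. Chil3 was at 246, 395 and 363 FPKM, but Arg1, arginase-1, was at 0.604, 0.718 and 0.409 FPKM, Retnla at 3.93, 6.36 and 3.38 FPKM and Ccl17 at 0.334, 0.13 and 0 FPKM. Of 14 interferon-stimulated genes, 13 were expressed, with a median of 10.7 FPKM. Acod1, which makes itaconate, was at 2.92, 2.01 and 1.85 FPKM.

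Division genes were expressed at low levels. All 23 replication and mitosis genes were at 1 FPKM or more on average with a median of 3.95 FPKM. Pcna, the sliding clamp of DNA polymerase, was at 80.1, 98.1 and 114 FPKM, well above Mki67 at 10.1, 6.83 and 8.01 FPKM and Top2a at 5.33, 5.19 and 6.49 FPKM. Control #1 was the lowest library for 18 of the 23 genes, and for 20 with the length trend removed, at a median deviation of -0.30 (log2) against about 0 for all expressed genes. The inhibitor Cdkn1a was at 45.5, 40.2 and 42.3 FPKM, and Cdkn2a had at most 2 fragments. Ribosomal protein genes, 80 of 82 expressed, held 5.04, 6.38 and 5.68% of the summed protein-coding FPKM in control #1, #2 and #3.

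Markers of other cell types were read to see what else the dish held. The 13 genes of neutrophils and their precursors were all expressed, with a median of 72.4 FPKM. S100a9 was at 2688, 4886 and 4345 FPKM and S100a8 at 1125, 1978 and 1843 FPKM. The precursor granule genes Elane, Mpo and Prtn3 were at 35.4, 93.3 and 68.8, 20.2, 45.2 and 39.4 and 11.6, 28.1 and 21.7 FPKM, and the later granule genes Ltf, Camp and Ngp at 163, 261 and 249.7, 108, 210.3 and 187 and 584, 951 and 845 FPKM. Ly6g, the surface antigen of mature neutrophils, was at 4.44, 6.37 and 8.14 FPKM.

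Control #1 was the lowest library for 11 of the 13 genes, Mmp8 and Cxcr2 being the exceptions, against 41.9% of all expressed protein-coding genes. The median deviation of the list from the mean of the libraries was -0.52 (log2) in control #1, and -0.301 once the trend on gene length was removed, with 10 of 13 lowest in control #1. The granulocyte list was not alone in this, as the replication and mitosis genes had a similar deviation, and of 5 expressed eosinophil genes 4 were lowest in control #1 with a median of -0.526. In a bulk sample, fewer cells of a type and less RNA per cell cannot be told apart. Some of these genes, such as S100a9, can also be transcribed by Mϕs and monocytes, and the share that came from granulocytes was not tested.

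PU.1 and C/EBP motifs were counted in the promoters of the granulocyte list. GAGGAAGT, a PU.1 motif that contains GGAA, was found on either strand in 6 of 13 windows against 3.12% of all windows. TTGCNNAA was found in 6 of 13 against 10.03%. In the Mϕ identity lists, GAGGAAGT was in 0 of 28 windows and TTGCNNAA in 4 of 28. Of the 52 lysosomal windows, 4 held GAGGAAGT. The windows of S100a8 (chr3:90668821-90669070 (plus strand)), Elane (chr10:79886062-79886311 (plus strand)) and S100a9 (chr3:90695722-90695971 (minus strand)) are shown as the highest gene with the PU.1 motif, a precursor granule gene with it and the highest gene with the C/EBP motif. Capitals mark GAGGAAGT or its complement in S100a8 and Elane, and TTGCNNAA in S100a9.
S100a8: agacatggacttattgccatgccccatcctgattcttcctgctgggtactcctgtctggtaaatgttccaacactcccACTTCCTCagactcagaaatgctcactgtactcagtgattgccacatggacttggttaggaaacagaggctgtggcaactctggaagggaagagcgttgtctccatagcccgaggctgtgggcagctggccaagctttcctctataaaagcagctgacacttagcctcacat
Elane: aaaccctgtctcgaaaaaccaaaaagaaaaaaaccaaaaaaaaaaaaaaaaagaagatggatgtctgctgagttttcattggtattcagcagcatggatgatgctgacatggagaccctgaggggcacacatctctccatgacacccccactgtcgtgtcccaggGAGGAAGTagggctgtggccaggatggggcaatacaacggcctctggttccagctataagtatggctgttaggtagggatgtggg
S100a9: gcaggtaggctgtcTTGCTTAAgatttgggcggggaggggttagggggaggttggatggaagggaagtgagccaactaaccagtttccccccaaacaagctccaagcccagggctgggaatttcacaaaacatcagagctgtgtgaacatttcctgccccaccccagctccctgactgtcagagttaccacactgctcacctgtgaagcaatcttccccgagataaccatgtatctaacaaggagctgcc
S100a8 held the PU.1 motif 172 bases and Elane 85 bases before the start, and S100a9 the C/EBP motif 236 bases before it.

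Genes of other blood lineages were also expressed. Prg2, the major basic protein of eosinophil granules, was at 65.1, 154 and 141 FPKM, lowest in control #1, while the eosinophil genes Epx and Siglecf were at 0.68, 1.46 and 1.25 and 1.28, 1.31 and 1.4 FPKM. Of 8 mast cell and basophil genes, the basophil protease gene Prss34 was at 7.75, 17.6 and 18.1 FPKM and Mcpt8 at 1.69, 4.38 and 5.03 FPKM, whereas Cma1 and Mcpt4 had 0 fragments. Il4, which basophils and eosinophils can make, was at 3.69, 4.46 and 2.79 FPKM with no IL-4 added. The source of the Il4 reads was not tested.

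Among B cell genes, 6 of 9 were expressed, with Ighm at 80.9, 105 and 99.6 FPKM and Cd79b at 15.5, 28.7 and 23.3 FPKM. All 8 platelet and megakaryocyte genes were expressed. Apart from Pf4, Ppbp was at 37.5, 56.9 and 48.3 FPKM and Itga2b at 6.69, 11.3 and 9.11 FPKM.

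Lists of other cell types differed in how many genes were expressed. Of 8 monocyte genes, 7 were expressed with a median of 11.3 FPKM, against 44.8% of protein-coding genes. Chil3, named above among genes associated with IL-4, was the highest of them. Of 8 non-classical monocyte genes, 6 were expressed with a median of 4.07 FPKM. Of 9 T cell genes, Cd28 alone was expressed, at 37.2, 23.3 and 28.6 FPKM, and Cd3e, Cd3d and Cd3g had means from 0.0506 to 0.135 FPKM. No natural killer cell gene of 7, no stromal gene of 9, no adipocyte gene of 5 and no hepatocyte gene of 6 reached 1 FPKM. The conventional dendritic cell list reached 1 of 8, with Ccr7 at 0.536, 1.31 and 1.34 FPKM and Xcr1 at 0.0257, 0.00749 and 0.032 FPKM. The plasmacytoid list reached 3 of 6, with Siglech at 3.41, 3.1 and 3.47 FPKM, a share of 50% near the background of 44.8%, from which nothing is read. Of 8 stem and progenitor cell genes, 2 were expressed, and Cd34 was at 0.185, 0.224 and 0.442 FPKM.

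Of 9 erythroid genes, 3 were expressed, with the receptor Epor at 3.36, 5.28 and 5.59 FPKM and the globin gene Hbb-bs at 0.448, 3.86 and 2.12 FPKM, lowest in control #1. Of 6 endothelial genes, Pecam1, which leukocytes also transcribe, was expressed at 2.64, 3.0 and 2.72 FPKM, and of 12 skeletal muscle genes Tnni2 was, at 4.34, 6.97 and 5.64 FPKM. Of 9 osteoclast genes, 6 were expressed, among them Mmp9, a gelatinase, at 46.1, 52.1 and 56.6 FPKM and Acp5, the acid phosphatase TRAP, at 12.5, 20.7 and 18.9 FPKM, while Calcr and Oscar had at most 3 fragments per library.

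Families of sensory receptors and keratins were largely silent. Of 21852 nuclear protein-coding genes, 5702 (26.1%) were at 0 in all 3 libraries. The olfactory receptor family had 1017 of 1134 genes at 0, and 1 gene, Olfr111, at a mean above 1 FPKM (3.5, 0.656 and 1.55 FPKM). Of vomeronasal receptors, 196 of 200 Vmn1r and 110 of 120 Vmn2r genes were at 0, as were 36 of 53 keratins and 56 of 57 keratin-associated proteins. Of 100 cytochrome P450 genes, 60 were at 0 and 8 were expressed, led by Cyp27a1, the sterol 27-hydroxylase, at 54.8, 54.4 and 48.8 FPKM. A value of 0 means that no fragment was assigned, not that the gene is off in every cell.

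Reads of intestinal genes were set aside as foreign to the culture. Of 45 Defa, Reg3, Itln1 and Ang4 genes, 24 were above 0 and 10 were at 1 FPKM or more, among them Defa30 at 12.6, 16.9 and 14.8 FPKM and Reg3b at 3.76, 5.26 and 4.42 FPKM. They held 0.0143 to 0.0167% of the summed FPKM in the 3 libraries. How many reads of other genes came from the same source was not estimated. The nearly identical Defa genes cannot be told apart.

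Variation between the 3 libraries was small for most genes. The median CV of the 9794 expressed protein-coding genes was 12.4%, 3830 genes (39.1%) were under 10% and 8936 (91.2%) under 30%. Counting error alone would give a median of 2.92% over the 8514 genes whose fragments could be recovered. Without control #1 the median CV was 7.42%.

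Part of this spread followed gene length. In genes of up to 1 kb of exon, control #1 lay at a median of -0.29 (log2) and control #2 at 0.26 from the gene's mean, and in genes over 10 kb they lay at 0.36 and -0.33. Control #3 stayed within 0.04 of 0 in all 6 length classes. The ratio of control #1 to control #2 therefore ran from 0.688 in the shortest class to 1.60 in the longest. The difference had a Spearman's rho of 0.676 with exon length and -0.185 with the GC content of the longest transcript across the 9794 genes, which share libraries and are not independent. The rho with exon length was 0.604 for control #1 against #3 and -0.578 for control #2 against #3. The cause of the trend was not tested. Removing the trend on length left a median CV of 9.20%.

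**Figure D4:**
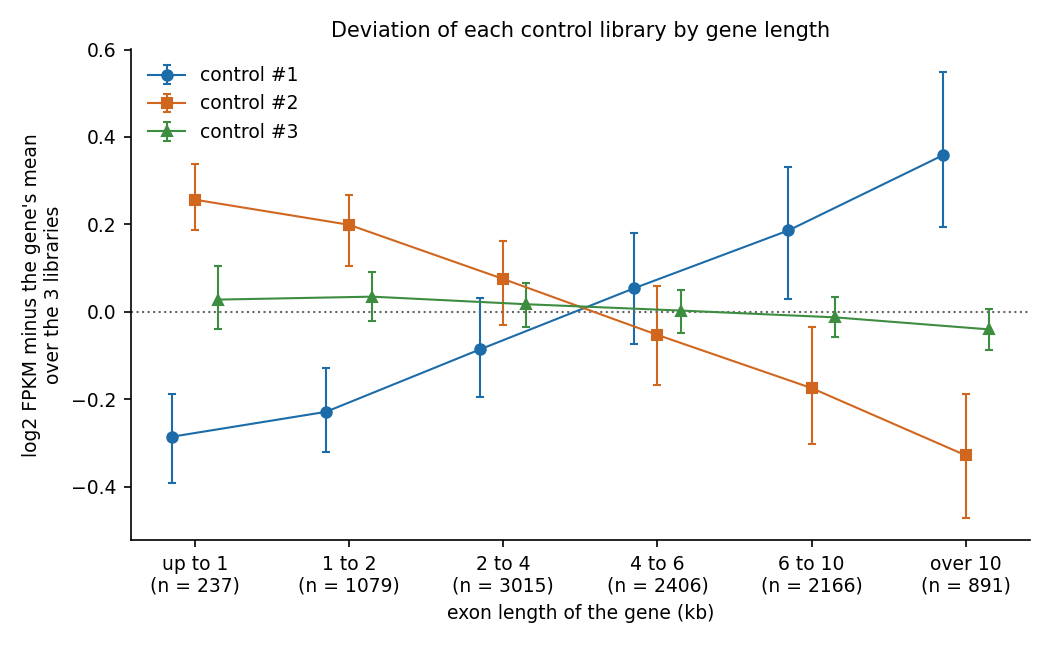
Median deviation of log2 FPKM from each gene's mean over the 3 control libraries, by exon length in kb, for expressed nuclear protein-coding genes (bars, lower to upper quartile). Control #1 runs from -0.29 to 0.36 with length, control #2 runs from 0.26 to -0.33, and control #3 stays near 0.

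The most variable genes were mostly long. Of the 20 genes with the highest CV among 6278 at 5 FPKM or more, 15 had over 8 kb of exon, against 13.5% of the 6278. Control #2 was the lowest library for 18 of the 20, against 45.3% of all 9794 expressed protein-coding genes. Control #1 was the highest library for 18, a count whose share over all genes is not given here. Lnpep, an aminopeptidase that trims antigen, was at 25, 2.5 and 6.97 FPKM, Itga4, the integrin that binds VCAM-1, at 23.1, 6.38 and 9.11 FPKM and Macf1, a giant cytoskeletal linker, at 18.6, 5.07 and 8.24 FPKM. The other long genes were Stard9, Wdfy3, Smg1, Dmxl1, Slc8a1, Mycbp2, Kat6a, Kmt2e, Atrx, Kmt2a, Usp9x and Cep350, with CVs from 55.9 to 66.8%. Alg10b, of 6644 bases, had a CV of 57.8%, and the shorter genes Psme2b and Gm10521 were also highest in control #1.

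The exceptions ran the other way. Fcna, ficolin A, a lectin of the complement system made by Mϕs, was at 10.2, 42.7 and 30.4 FPKM, and the predicted gene Gm21887 at 1.77, 6.41 and 10.7 FPKM. With the length trend removed, 7 of the 20 genes stayed among the 20 most variable. Of those that entered, Vcam1, which binds Itga4 and marks red pulp Mϕs, was at 5.64, 18.1 and 15.2 FPKM, lowest in control #1, and Tlr8 and Tlr9 were highest there. These 3 genes fall outside the rule for named genes and were chosen after their values were seen.

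The steadiest genes at 100 FPKM or more had CVs under 3% and of varied function. After Sirpa came the survival factor Mcl1 at 241, 238 and 238 FPKM, and Rragc, a GTPase that links lysosomal amino acids to mTORC1, at 119, 121 and 121 FPKM. Slc11a1, the metal transporter of phagosomes, was at 220.3, 228 and 223 FPKM and Idh1 at 152, 148 and 153 FPKM. These were likewise named after their values were seen.

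The CpG content of promoters differed by level. The RefSeq table held a window of 300 bases (250 before and 50 after the start) for 16504 of 21852 nuclear protein-coding genes (75.5%). The median number of CpG dinucleotides was 2 in genes at 0 in every library, 10 in those under 1 FPKM, 21 at 1 to 10 FPKM, 22 at 10 to 100 FPKM, 19 at 100 to 1000 FPKM and 10 in the 23 genes at 1000 FPKM or more. TATAAA, the core of the TATA box, was found on either strand in 25.6% of silent genes, 5.94% at 1 to 10 FPKM and 30.4% (7 of 23) at the top.

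**Figure D5:**
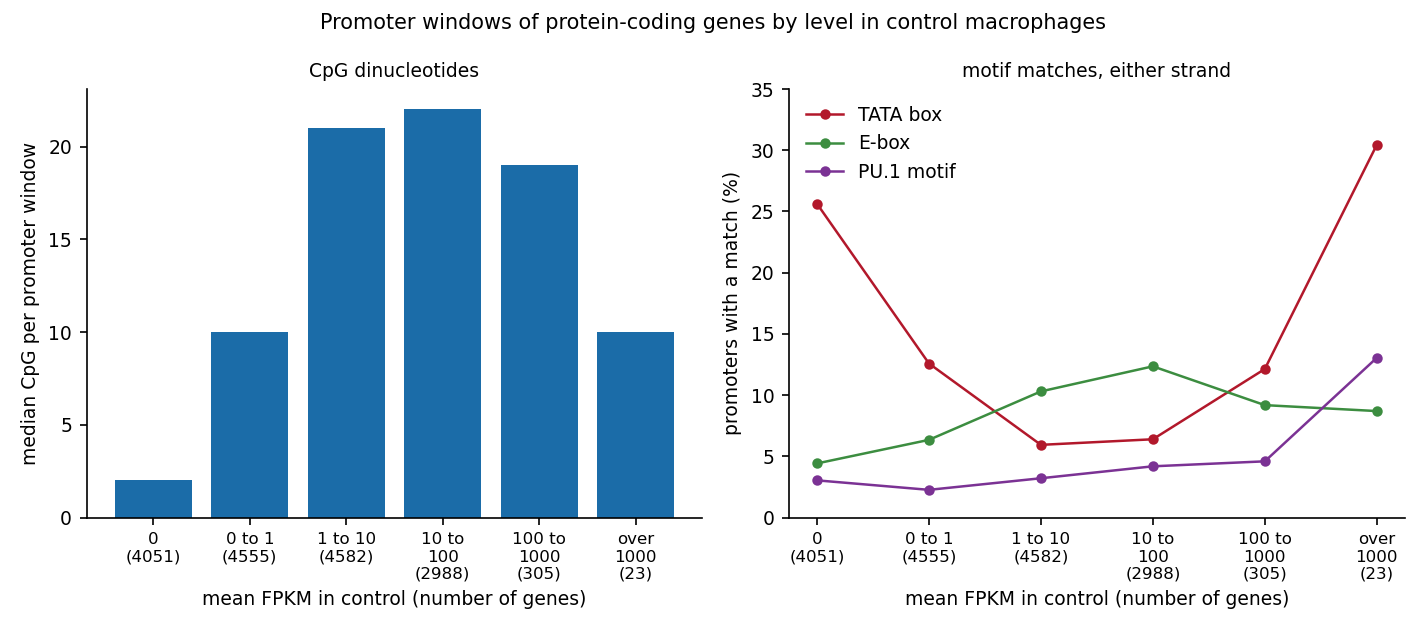
Median CpG count of 300-base promoter windows (left, bars from 0) and percent of windows with a TATA box, an E-box or a PU.1 motif on either strand (right), by mean FPKM in control, with the number of genes in brackets. CpG counts peak at 22 in genes at 10 to 100 FPKM, where 6.39% hold a TATA box, and the highest class holds 23 genes.

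By function, the median CpG count was 14 over all windows, 24 for replication and mitosis, 21 for lineage transcription factors, 20 for metabolism, 15 for cytokine and chemokine receptors, 14 for the lysosome, 9.5 for immune regulatory surface proteins, 6.5 for Mϕ identity, 6 for uptake receptors, 4 for secreted products and 3 for pattern recognition receptors. A C/EBP motif was found in 7 of 19 pattern recognition receptors (36.8%) and 18 of 87 secreted products (20.7%), against 10.03% of all windows. The lists of other cell types, granulocytes included, held it in 28 of 142 windows (19.7%). It was also in 14% of windows of genes at 0 in every library, against 7.75% at 1 to 10 FPKM. The motif was therefore not particular to expressed genes. CACGTG was in 4 of 11 proton pump promoters and in none of the 19 pattern recognition receptors.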

How the data were processed

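RNA-seq of mouse BM-derived Mϕs was read from the FPKM table that the authors deposited (9 libraries). The submitters' processing notes name STAR 2.4.2a, Cufflinks 2.2.1 and GRCm38. No column of the table lacked a sample (0 columns unused). Only the 3 control columns were described. Gene types, positions and exon lengths came from GENCODE M21, whose identifiers matched 50604 of 53379 genes with their version (94.8%). In these genes all 109708 values of up to 200 fragments in the 9 libraries were whole fragments within 0.05, which gave each library's total. A read counter gives such whole fragments, so the program that made the deposited values is not settled. Fragments of genes with a changed version were not computed. A count of 3 fragments was taken as the floor, and floors cover counting error only. How strand was used in counting is not given in the sources used here.

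Named genes are the 4 markers, the 30 highest nuclear protein-coding genes, the highest and floor-level members of each list, the 20 genes of highest CV at 5 FPKM or more, and the intestinal genes, and other list members are given as examples. The 771 listed genes, in 76 lists, were chosen with earlier results of these data known. The trend on exon length was estimated as medians of 40 length bins. Clec7a and Ifi30 are not typed as protein-coding in M21 and enter counts over lists but not ranks. The first listed promoter of each gene was searched. Recovery of fragments and CV was tested on simulated data. Python 3.11.15, numpy 2.4.6, pandas 2.3.3, scipy 1.17.1 and matplotlib 3.10.9 were used. Some list members are counted but not reported here by name.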

Additional observations from a re-analysis of the deposited data

Results flagged for a closer look

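Reads of skeletal muscle genes in treated libraries, which are used for no other result, exceeded the highest control library. The 12 muscle genes together held 12.2 fragments per 1000000 in that control library. The values after IL-4 treatment were 16.46 in replicate #2 and 16.54 in replicate #3. In the 3 libraries with added IL-6, they held 14.16, 22.78 and 15.82 in the order of their numbers. IL-4 #1 did not exceed the control libraries. In control, Tnni2 alone gave 227 of 300, 313 of 366 and 296 of 367 of these fragments. The other 11 genes held 1.77 to 2.09 fragments per 1000000 in control, 1.40 in IL-4 #1 and 10.7 to 19.6 in the 5 libraries named above. The intestinal genes divided the libraries the same way, with 43.6 to 57.6 fragments per 1000000 in control and 38.1 in IL-4 #1, and at most 0.245 in each of the other 5 libraries. The source of these reads was not tested.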

How the results depend on the processing

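No paired analysis was possible because the description covers 1 group and rests on no test. At a threshold of 5 FPKM, 6491 genes of all types were expressed in place of 10936, and other thresholds, TPM, protein-coding genes alone and leaving out each library gave 9805 to 13571. The share of the 100 highest genes was 33.8% as fragments without division by length, in place of 44.8%, and 43.6 to 46.2% with each library left out. Of the 100 highest genes, 62 remained among the 100 highest by fragments and 95 to 99 with each library left out. The median CV, 12.4%, was 7.42% without control #1 and 15.7% without control #3. Among listed genes, 591 of 771 were expressed, 481 at 5 FPKM and 585 to 590 with each library left out. The median CpG count of expressed genes, 21, was 18 at 100 FPKM or more and 22 in genes with 1 listed promoter, an alternative chosen after seeing the data, as was removal of the length trend. Depth limits the genes at 3 fragments or fewer, whose order cannot be read.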

Other observations

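Noncoding transcripts were a small part of the poly(A) RNA. Long intergenic RNAs held 0.333% of the summed FPKM, with 147 of 5248 expressed. Neat1, the scaffold of paraspeckles, was at 100.1, 89.5 and 86.8 FPKM, and Malat1, a nuclear RNA, at 131, 33.3 and 76.7 FPKM, highest in control #1. Mir142hg, the host of a microRNA of blood cells, was at 45.7, 79.8 and 64.3 FPKM. Xist, which coats the inactive X chromosome, was at 78, 25.9 and 38.3 FPKM, while the Y-linked genes Ddx3y, Eif2s3y, Kdm5d and Uty had means from 0.00195 to 0.024 FPKM.

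Mitochondrial transcripts held 3.66, 2.13 and 2.61% of the summed FPKM. Mitochondrial genes of the same complex were listed at very different levels. Of the cytochrome oxidase subunits, mt-Co1 was at 4901, 3452 and 4028 FPKM, mt-Co2 at 29.9, 27.6 and 30.1 FPKM and mt-Co3 at 2.63, 2.38 and 2.91 FPKM, and mt-Atp6 was at 6.81, 3.08 and 4.44 FPKM. The cause was not tested.

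Some very short genes were listed at high levels. Gm23935, with 57 bases of exon, was at 1036, 1029.7 and 1132 FPKM and Gm10736, with 78 bases, at 647, 986 and 892 FPKM. They came from 2062 and 1761 fragments in control #1, so their rank rests on the division by a very short length.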
